A study of Mus musculus with 16 samples.

Results

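The immediate early transcription factor genes *Nr4a1*, *Nr4a2*, *Nr4a3*, *Egr1*, *Egr2*, *Egr3*, *Fos*, *Fosb*, *Jun* and *Junb* were followed in RNA-seq of mouse splenic B cells. The members were taken by gene symbol. They are 10 of 27928 genes in the table, and all 10 were among the 14761 genes that passed the filter on low values (a mean normalized count of at least 10 over the 8 libraries). Follicular (FO, CD21lo CD23hi) and marginal zone (MZ, CD21hi CD23lo) B cells came by cell sorting from spleens of C57BL/6 mice of 8 to 12 weeks, and RNA was sequenced from 2 libraries in each of 4 groups (WT FO, WT MZ, cKO FO and cKO MZ). The question behind the design was how loss of TFII-I, the general transcription factor encoded by *Gtf2i*, alters the transcriptome of each subset. The cKO mice were *Gtf2i* fl/fl and carried a Cre that limits deletion to the B lineage. The WT mice were BL6 animals for which the methods name no floxed allele and no Cre, so the floxed allele, Cre and loss of *Gtf2i* cannot be told apart in a comparison of cKO with WT. Nothing in the labels says whether replicates came from separate mice or pools, or whether an FO and an MZ library with the same number came from the same mice, so the p-values measure the spread between these libraries.

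Immediate early genes are switched on within minutes of a stimulus, without new protein synthesis, when kinases such as ERK activate factors already bound at their promoters. In B cells the B cell receptor, CD40 and Toll-like receptors all induce them. The NR4A members are orphan nuclear receptors, of which *Nr4a1* (Nur77) is widely used as a readout of antigen receptor signalling. The EGR members are zinc finger factors held in check by the NAB corepressors. FOS, FOSB, JUN and JUNB pair through leucine zippers to form AP-1.

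Promoter sequence was matched by symbol in RefSeq (build GRCm38.p6) for 8 of the 10 members. *Egr1* and *Egr3* were not matched. A window of 250 bases upstream of each start was searched on both strands for 5 motifs, and a gene was counted where any of its windows held the motif. *Egr2* had 5 windows and each of the other 7 members 1. The CREB core TGACG, bound by CREB family factors, was present in 7 of the 8 matched members, against 19.8% of 27025 genes. The full CRE TGACGTCA, which contains that core, was in 0 of 8 members (1.77% of genes), and the AP-1 site TGANTCA was in 0 of 8 (7.82%). The EGR site GCGNGGGCG was in 3 of 8 (5.33%), and the CArG box bound by SRF was in 1 of 8, *Egr2* (1.62%). Motif matches describe the letters of these windows. The stretches below were chosen because *Egr2* differed most clearly between FO and MZ cells, and because *Nr4a1*, *Fosb* and *Fos* carry the contrast between replicates described later. In GENCODE M21 (GRCm38), *Egr2* (ENSMUSG00000037868.15) spans chr10:67535475-67542188, *Nr4a1* (ENSMUSG00000023034.7) chr15:101254269-101274795, *Fosb* (ENSMUSG00000003545.3) chr7:19302696-19310051 and *Fos* (ENSMUSG00000021250.13) chr12:85473890-85477273, so the *Egr2* and *Nr4a1* stretches lie inside their genes, before internal starts, and the *Fosb* and *Fos* stretches just upstream. Each lies outside annotated exons and reads 5′ to 3′ on the strand of the gene, with CREB cores, EGR sites and CArG boxes in capitals, each on either strand.
Egr2, chr10:67537619-67537868 (+): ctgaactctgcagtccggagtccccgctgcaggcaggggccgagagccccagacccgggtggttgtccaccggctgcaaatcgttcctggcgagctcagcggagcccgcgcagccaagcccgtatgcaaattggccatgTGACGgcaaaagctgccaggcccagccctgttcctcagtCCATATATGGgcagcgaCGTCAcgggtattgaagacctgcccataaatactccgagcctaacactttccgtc
Nr4a1, chr15:101266596-101266845 (+): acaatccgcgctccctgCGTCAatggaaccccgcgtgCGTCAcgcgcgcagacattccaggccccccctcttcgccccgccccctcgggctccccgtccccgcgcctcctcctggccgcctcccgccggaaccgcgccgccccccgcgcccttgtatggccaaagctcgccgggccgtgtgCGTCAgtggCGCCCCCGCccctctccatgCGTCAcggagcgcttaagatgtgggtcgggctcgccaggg
Fosb, chr7:19310052-19310295 (-): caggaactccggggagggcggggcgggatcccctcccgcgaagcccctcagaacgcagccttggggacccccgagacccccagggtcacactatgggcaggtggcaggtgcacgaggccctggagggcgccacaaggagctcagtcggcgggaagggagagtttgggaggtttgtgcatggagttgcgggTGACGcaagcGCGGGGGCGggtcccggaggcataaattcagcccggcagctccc
Fos, chr12:85473640-85473889 (+): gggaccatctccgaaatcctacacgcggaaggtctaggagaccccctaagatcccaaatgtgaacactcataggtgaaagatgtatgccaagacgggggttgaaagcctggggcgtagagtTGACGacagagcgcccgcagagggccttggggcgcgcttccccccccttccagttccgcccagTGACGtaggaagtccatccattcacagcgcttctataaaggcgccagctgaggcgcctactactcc
The *Egr2* stretch, before one of the RefSeq starts of this gene, held 1 CArG box and 2 CREB cores. The *Nr4a1* stretch held 4 CREB cores and 1 EGR site, *Fosb* 1 of each, and *Fos* 2 CREB cores.

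Each library held between 21546552 and 25083552 reads on genes, and the members had between 81 (*Nr4a3*, cKO FO replicate 2) and 32013 reads (*Fosb*, WT MZ replicate 1) in a library. A normalized count is a number of reads over the size factor of its library. *Gtf2i* was at 2040 and 1992 normalized counts (WT FO), 1523 and 1531 (cKO FO), 2864 and 2471 (WT MZ) and 1782 and 1889 (cKO MZ). It was lower in all 4 cKO libraries, by 0.47 on the log2 scale (SE 0.06, limma adjusted p = 0.0348), which is less than the 1.5-fold required of a call, so transcript from the gene remained. The defining markers followed the sort, with *Fcer2a* (CD23) higher in every FO library and *Cr2* (CD21) higher in every MZ library. *Xist* ran from 25929.5 to 47001.6 in WT and from 21.7 to 14748 in cKO. The Y-linked *Ddx3y* reached at most 6.34 in WT and at least 2682 in cKO, so genotype and sex-linked differences between the mice cannot be told apart. Within cKO, *Xist* was at 14748 in cKO FO replicate 1, where *Ddx3y* was at 2682, so that library held RNA typical of both sexes. In cKO FO replicate 2 *Xist* was at 67.4, and in cKO MZ at 89.7 (replicate 1) and 21.7 (replicate 2). Replicates of cKO FO, and cKO libraries numbered 1, thus differed in sex-linked RNA. The library cKO MZ replicate 1 had a summed level of 13304 over 6 erythroid markers and 1752 over 8 granulocyte markers, where the other 7 libraries reached at most 1007 and 101. In bulk samples, fewer cells expressing a gene and less RNA per cell cannot be told apart.

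All members were expressed in both subsets and both genotypes, over a wide range. Levels of different genes were compared per kilobase of exon. On that scale *Junb* was the highest in 6 of 8 libraries, *Jun* in WT MZ replicate 1 and *Fos* in WT MZ replicate 2, and *Nr4a3* was the lowest in all 8. Group means per kilobase ran from 7549.5 to 12067 for *Junb*, from 5751.5 to 6510.3 for *Fos*, from 3068 to 6761 for *Jun*, from 3304 to 4724 for *Nr4a1* and from 2752 to 4538 for *Fosb*. They were lower for *Egr3* (797 to 1148), *Egr1* (334 to 753), *Egr2* (119 to 419), *Nr4a2* (114 to 251) and *Nr4a3* (19.9 to 32.9). These sorted cells, for which the protocols name no stimulation, thus contained AP-1 and *Nr4a1* RNA well above that of *Egr2*, *Nr4a2* and *Nr4a3*.

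**Figure D1:**
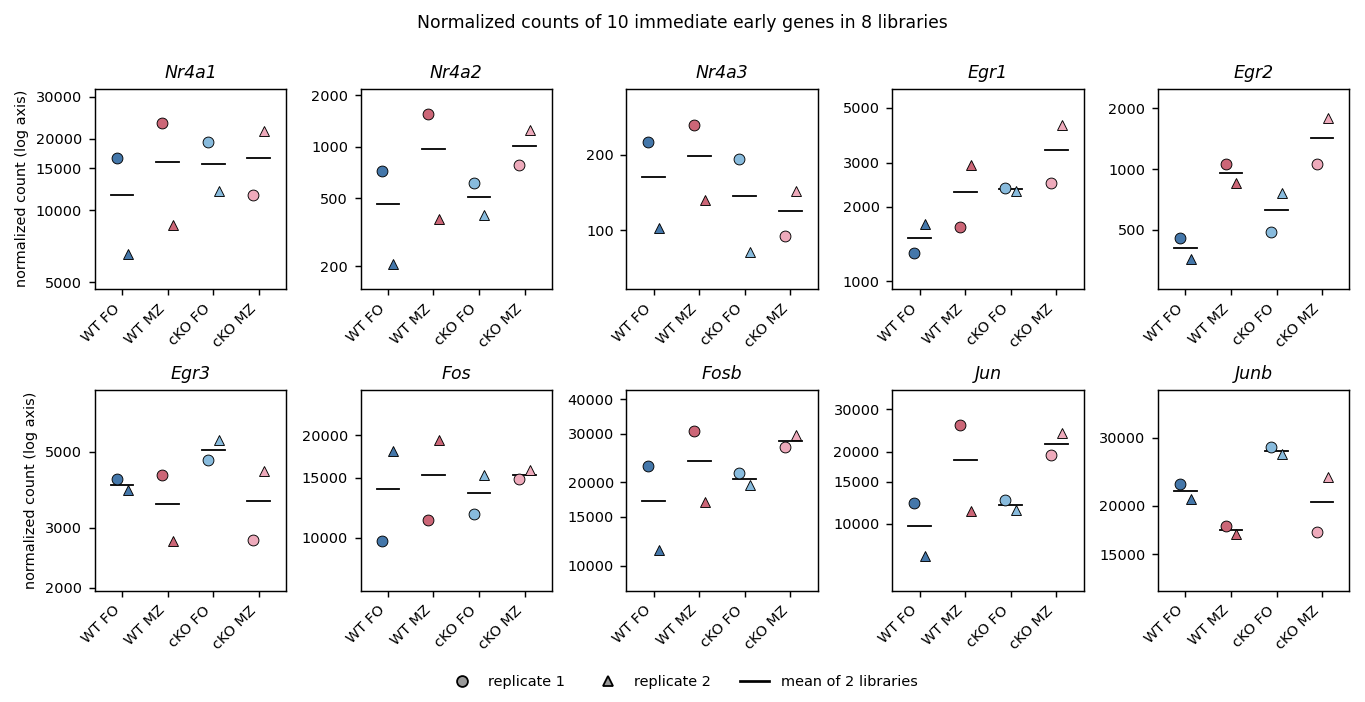
Normalized count of each gene (log axis, with its own range in each panel) in the 8 libraries, by group, with circles for replicate 1, triangles for replicate 2 and a line at the mean of 2 libraries. The groups do not overlap for *Egr2*, as for 4.91% of genes, although WT MZ and cKO MZ are parted only by 1056.5 against 1057.5, whereas the WT circles and triangles lie far apart for *Nr4a1*, *Nr4a2*, *Fosb* and *Jun*.

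The comparison of FO with MZ cells asks how these genes differ between the subsets. *Egr2* was higher in MZ cells in both genotypes, and *Jun* was higher in MZ cells over both genotypes. *Junb* went the other way by a smaller amount. Of the 10 members, 1 was called in WT (*Egr2*, against 12% of all genes tested in either direction), 1 in cKO (*Egr2*, against 13.7%) and 2 over both genotypes (*Egr2* and *Jun*, against 19.5%). A call is a limma adjusted p of at most 0.05 and a change of at least 1.5-fold, and the members' share was close to the background in each case. The FO and MZ libraries did not overlap for 2 of 10 members in WT, against 55.3% of genes, and for 7 of 10 in cKO, against 65%. All log2 differences are on the scale of log2(normalized count + 1).

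*Egr2*, a zinc finger factor known in lymphocytes for restraining activation, was at 454 and 358 normalized counts (WT FO), 490.4 and 759 (cKO FO), 1056.5 and 855 (WT MZ) and 1057.5 and 1789 (cKO MZ). All 4 MZ libraries lay above all 4 FO libraries. Non-overlap of the 4 FO and 4 MZ libraries in either direction was seen for 36.5% of genes and for 1 of the 10 members. FO minus MZ was -1.24 (SE 0.29, limma adjusted p = 0.0259) in WT, -1.17 (SE 0.29, limma adjusted p = 0.0280) in cKO and -1.20 (SE 0.19, limma adjusted p = 0.00128) over both genotypes. The call over both genotypes held with each library left out, with a difference between -1.36 and -1.06. Within WT it was lost without WT FO replicate 1 (-1.41, limma adjusted p = 0.0560), without WT FO replicate 2 (-1.06, 0.100) or without WT MZ replicate 1 (-1.08, 0.108). Within cKO it was lost without cKO FO replicate 1 (-0.86, limma adjusted p = 0.170) or without cKO MZ replicate 2 (-0.79, 0.152).

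*Egr1*, the founding EGR gene, was at 1303 and 1695 (WT FO), 2384 and 2320.1 (cKO FO), 1660.4 and 2938 (WT MZ) and 2479.8 and 4275 (cKO MZ). The WT subsets overlapped and the cKO subsets did not. The difference over both genotypes was -0.52 (SE 0.21, limma adjusted p = 0.0798) and did not pass. *Egr3*, which is often induced together with *Egr2*, was at 4146 and 3855 (WT FO), 4726 and 5391 (cKO FO), 4274 and 2749.5 (WT MZ) and 2761 and 4392 (cKO MZ). Its fitted difference had the opposite sign to that of *Egr1* and *Egr2*, at 0.38 (SE 0.17, limma adjusted p = 0.119), and did not pass either.

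*Jun* (ENSMUSG00000052684.4, chr4:95049034-95052222), the founding JUN gene, was at 12206 and 7363 (WT FO), 12548 and 11382 (cKO FO), 25732 and 11263 (WT MZ) and 19320.1 and 23801 (cKO MZ). The cKO subsets were apart, whereas in WT the lower MZ library lay between the FO libraries. The difference was -0.84 (SE 0.37, limma adjusted p = 0.176) in WT and -0.84 (SE 0.37, limma adjusted p = 0.161) in cKO. The WT value rested on single libraries, at -0.25 without WT MZ replicate 1, -0.48 without WT FO replicate 2 and -1.44 without WT MZ replicate 2, where it was a call (limma adjusted p = 0.0176). The difference reached the call over both genotypes, at -0.84 (SE 0.25, limma adjusted p = 0.0252). That call was lost without WT FO replicate 2 (-0.70, limma adjusted p = 0.0602), cKO FO replicate 1 (-0.87, 0.0551), cKO FO replicate 2 (-0.82, 0.0683) or cKO MZ replicate 2 (-0.78, 0.0746). Without cKO MZ replicate 1, the library with erythroid RNA, both calls over both genotypes held, at -1.36 for *Egr2* and -0.90 for *Jun* (limma adjusted p = 0.00124 and 0.0485). *Jun* overlaps the gene *Junos* on the opposite strand, and the sources do not say whether counting used strand. Reads in the stretch that the pair shares thus cannot be told apart, and the length of that stretch was not measured.

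*Junb*, whose product is often described as opposing that of *Jun*, was at 22792 and 20830.2 (WT FO), 28364 and 27167 (cKO FO), 17797 and 16946 (WT MZ) and 17105 and 23773 (cKO MZ). FO libraries were above MZ libraries within each genotype. The difference of 0.39 over both genotypes passed the test (SE 0.10, limma adjusted p = 0.0141) but not the 1.5-fold limit. *Junb* likewise overlaps the opposite-strand gene *Prdx2*, and reads in the stretch they share cannot be told apart. Within each library, the ratio of *Jun* to *Junb* per kilobase, a comparison chosen after the values were seen, was 0.386 and 0.255 (WT FO), 0.319 and 0.302 (cKO FO), 1.04 and 0.480 (WT MZ) and 0.815 and 0.722 (cKO MZ). The ratio in every MZ library was above that in every FO library.

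*Fos*, which forms AP-1 only with a partner such as JUN, was at 9813 and 18031 (WT FO), 11769 and 15286 (cKO FO), 11287 and 19332 (WT MZ) and 14846 and 15779 (cKO MZ). *Fosb*, its close relative, was at 23005 and 11357 (WT FO), 21568 and 19652 (cKO FO), 30833 and 17022 (WT MZ) and 26945 and 29716 (cKO MZ). For both genes the WT subsets overlapped. Neither passed over both genotypes, with -0.17 (SE 0.21, limma adjusted p = 0.566) for *Fos* and -0.48 (SE 0.23, limma adjusted p = 0.136) for *Fosb*.

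Among the nuclear receptors, *Nr4a1* was at 16637 and 6551 (WT FO), 19310 and 12101 (cKO FO), 23203 and 8711 (WT MZ) and 11641 and 21513 (cKO MZ). *Nr4a2* (Nurr1) was at 722 and 206 (WT FO), 617 and 399.6 (cKO FO), 1568 and 380.4 (WT MZ) and 779 and 1255 (cKO MZ). *Nr4a3* (Nor1) was at 224 and 102 (WT FO), 191 and 81.5 (cKO FO), 262 and 132 (WT MZ) and 94.7 and 143 (cKO MZ). In all 3 genes the 2 libraries of each group were at least 1.5-fold apart, and in WT the subsets overlapped. None of the 3 passed, with FO minus MZ over both genotypes at -0.25 (SE 0.39) for *Nr4a1*, -0.996 (SE 0.49) for *Nr4a2* and -0.10 (SE 0.36) for *Nr4a3* (limma adjusted p = 0.651, 0.141 and 0.851). The *Nr4a2* value was -0.999 in WT and -0.993 in cKO.

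**Figure D2:**
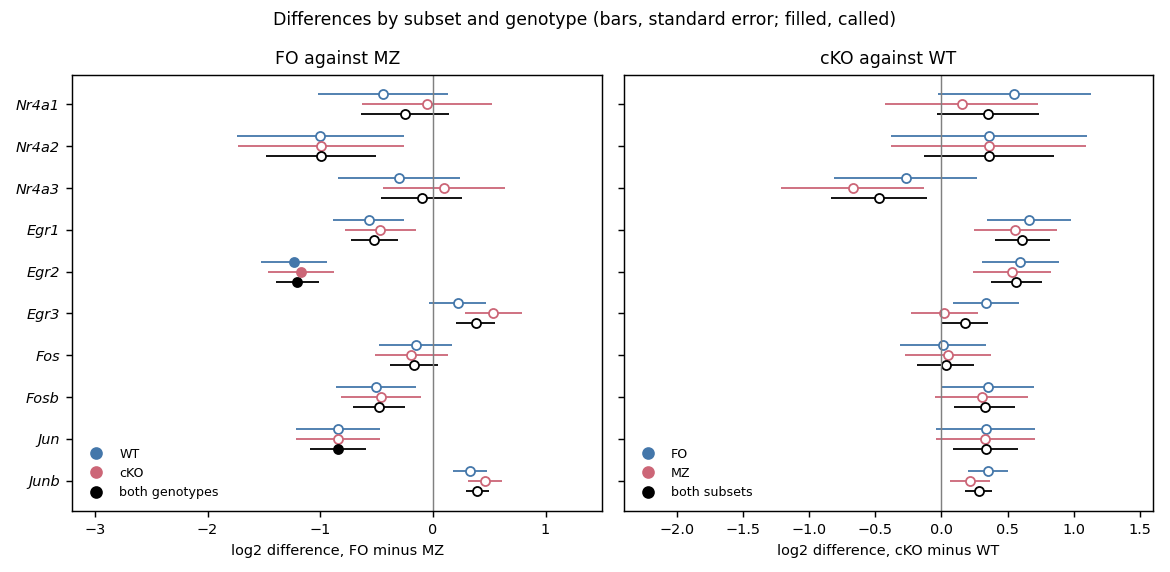
Fitted log2 difference of each gene, FO minus MZ (left) and cKO minus WT (right), with bars for the standard error, colours for the subset or genotype in which it was taken, and filled points for calls. The filled points are *Egr2* in WT, in cKO and over both genotypes and *Jun* over both genotypes, all at higher levels in MZ cells, and none is on the right.

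Other genes of these pathways were read in the same fit, over both genotypes. Of 12 further EGR and AP-1 family genes, 8 were tested, of which 1 was higher in FO (*Jund*, 0.98, SE 0.22, limma adjusted p = 0.00818) and 1 higher in MZ cells (*Jdp2*, an AP-1 repressor, -1.99, SE 0.23, limma adjusted p = 0.000217). The list median was 0.00, as over all genes. *Fosl2* (FRA2) stood at -1.17 (SE 0.90, limma adjusted p = 0.342) and did not pass. The 2 NAB corepressors, which bind EGR proteins, were both called and in opposite directions. *Nab1* was at 2053 and 1767 (WT FO), 2058 and 1656 (cKO FO), 4211 and 3383 (WT MZ) and 3404 and 4057 (cKO MZ), higher in every MZ library (-0.998, SE 0.10, limma adjusted p = 0.000122). *Nab2* was at 963 and 1215 (WT FO), 858 and 771 (cKO FO), 458 and 488 (WT MZ) and 218 and 288 (cKO MZ), higher in every FO library (1.44, SE 0.14, limma adjusted p = 7.93e-05).

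Among the factors that bind immediate early promoters, 13 of 15 were tested, 1 was higher in FO (*Mef2c*, 1.04, SE 0.08) and 1 in MZ cells (*Elk3*, a ternary complex factor, -0.77, SE 0.06), with a list median of 0.21. *Srf* itself differed by 0.16 (SE 0.07, limma adjusted p = 0.0912). Of 12 genes of the ERK, JNK and p38 kinase pathways, 2 were higher in FO (*Rps6ka5*, the kinase MSK1, 1.04, and *Mapk3*, ERK1, 0.60) and 1 in MZ cells (*Rps6ka1*, the kinase RSK1, -1.11), with a median of 0.21. Of 9 MAP kinase feedback genes, which encode phosphatases and Sprouty-type inhibitors, 6 were higher in FO and 0 in MZ cells, with a median of 0.92 against 0.00 for all genes. Over all 14761 genes tested, 1172 were called higher in FO. Within WT 1 of the 9 feedback genes was called higher in FO, and within cKO 2. The first 4 by p over both genotypes were *Dusp4* (2.25, SE 0.40), *Spred2* (1.46, SE 0.27), *Spry2* (1.27, SE 0.30) and *Dusp2* (0.59, SE 0.17). Of 34 other primary response genes, 33 were tested, 11 were higher in FO and 7 in MZ cells, with a median of 0.32. The strongest by p were *Hbegf*, a growth factor of the EGF family (-4.18, SE 0.41), *Nfkbia*, the NF-kB inhibitor (0.97, SE 0.10), *Ier2* (0.83, SE 0.09) and *Trib1* (0.80, SE 0.11). Primary response genes were thus called in both directions. Both called members were higher in MZ cells, the direction of 1705 calls over all genes, against 1172 higher in FO. *Junb*, higher in FO at 0.39, passed the test but missed the 1.5-fold limit.

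The comparison of cKO with WT asks whether loss of *Gtf2i* altered these genes. In FO cells 0 of 10 members were called (0.0677% of all genes), in MZ cells 0 of 10 (0.0339%) and over both subsets 0 of 10 (0.149%). At an unadjusted p under 0.05, limma gave 382 genes in FO, 596 in MZ and 1230 over both subsets, and DESeq2 and the edgeR quasi-likelihood test on the recovered reads also called 0 members in each. Over both subsets the largest fitted differences were in *Egr1* (0.61, SE 0.21, limma adjusted p = 0.502) and *Egr2* (0.56, SE 0.19, limma adjusted p = 0.502). The *Egr1* difference was 0.66 (SE 0.31) in FO and 0.56 (SE 0.31) in MZ cells, and that of *Egr2* was 0.60 (SE 0.29) and 0.53 (SE 0.29). In MZ cells the *Egr1* value was 0.15 without WT MZ replicate 1, 0.17 without cKO MZ replicate 2, 0.95 without cKO MZ replicate 1 and 0.97 without WT MZ replicate 2. The *Egr2* value in MZ cells was 0.15 without cKO MZ replicate 2 and 0.91 without cKO MZ replicate 1, and in FO cells it was 0.28 without cKO FO replicate 2 and 0.91 without cKO FO replicate 1. Fitted values were above 0 for 9 of 10 members, although *Fos*, at 0.03, was at -0.0099 with edgeR and -0.0206 with DESeq2, and *Nr4a3* was at -0.47 (SE 0.36, limma adjusted p = 0.788). In FO cells the cKO libraries lay above the WT libraries for *Egr1*, *Egr2*, *Egr3* and *Junb*, 4 of 10 members against 10.9% of all genes, and in MZ cells for *Egr2*, 1 of 10 against 15.8%. Over both subsets the 4 cKO and 4 WT libraries overlapped for every member, as for all but 2.09% of genes.

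The remaining members did not pass in either subset. Over both subsets cKO minus WT was 0.35 (SE 0.39) for *Nr4a1*, 0.36 (SE 0.49) for *Nr4a2*, 0.18 (SE 0.17) for *Egr3*, 0.03 (SE 0.21) for *Fos*, 0.33 (SE 0.23) for *Fosb*, 0.33 (SE 0.25) for *Jun* and 0.28 (SE 0.10) for *Junb*. For *Nr4a1*, *Nr4a2*, *Fosb* and *Jun* these standard errors leave room for a change of 1.5-fold, and a change was not detectable with this number of libraries. The same held for *Nr4a3*, at -0.47 (SE 0.36) over both subsets. Within FO cells alone it held for *Egr3* (0.34, SE 0.25), *Fos* (0.01, SE 0.32) and *Junb* (0.35, SE 0.15). Within MZ cells alone it held for *Egr3* (0.02, SE 0.25) and *Fos* (0.05, SE 0.32). None of the other EGR and AP-1 genes, NAB corepressors, promoter-binding factors, kinases, feedback genes, primary response genes or heat shock genes was called in any of the 3 genotype comparisons. Their medians over both subsets were 0.38, -0.35, -0.10, -0.01, 0.18, 0.18 and -0.16, against -0.01 for all genes.

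Whether genotype altered the difference between subsets was tested as an interaction. Here 0 of 10 members and 0 of all genes were called (0%), while 94 genes had an unadjusted limma p under 0.05, and DESeq2 and edgeR also called 0 genes. The interaction, (cKO minus WT in MZ) minus (cKO minus WT in FO), was -0.06 (SE 0.41) for *Egr2* and -0.00 (SE 0.53) for *Jun*. For the other members it ran from -0.40 (SE 0.76, *Nr4a3*) to 0.04 (SE 0.46, *Fos*), with standard errors of up to 1.05 (*Nr4a2*).

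Ordered by group mean, *Egr2* rose in the sequence WT FO (406 ± 68.1, SD, n = 2), cKO FO (625 ± 190), WT MZ (956 ± 143) and cKO MZ (1423 ± 517). No groups overlapped for *Egr2*, which held, in any order of the groups, for 1 of 10 members and 4.91% of all genes tested, and the highest WT MZ and the lowest cKO MZ library differed only by 1056.5 against 1057.5. The sequence was the same for *Nr4a1*, *Nr4a2*, *Fosb* and *Jun*, but there all 3 pairs of neighbours overlapped. For *Egr3* and *Junb* it was WT MZ, cKO MZ, WT FO and cKO FO, where only WT FO and cKO FO were apart. For *Egr1* it was WT FO, WT MZ, cKO FO and cKO MZ, with only the last pair apart, and for *Fos* and *Nr4a3* all neighbours overlapped.

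The libraries of a group differed widely for several members, and in WT they did so in the same direction in both subsets. Library number 1 had more *Nr4a1*, *Nr4a2*, *Nr4a3*, *Fosb* and *Jun* RNA than library number 2 in both WT subsets, and less *Fos*. The shift is given as replicate 1 minus replicate 2 on the log2 scale and, since the choice of these genes names it, as a description with no test. At 1.5-fold or more in both WT subsets, 5 of 10 members were higher in replicate 1, against 4.67% of all genes tested, and 1 of 10 was lower, against 4.83%.

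*Nr4a2* had the widest shift of the members, 1.80 in WT FO and 2.04 in WT MZ, or 3.48-fold and 4.11-fold. *Nr4a1* followed at 1.34 and 1.41, *Nr4a3* at 1.13 and 0.98, *Fosb* at 1.02 and 0.86 and *Jun* at 0.73 and 1.19. *Fos* shifted by -0.88 and -0.78. *Fos* and *Fosb*, members of one subfamily, thus moved in opposite directions between the same libraries. The EGR genes and *Junb* did not pass in both subsets, with *Egr1* at -0.38 and -0.82, *Egr2* at 0.34 and 0.31, *Egr3* at 0.11 and 0.64 and *Junb* at 0.13 and 0.07. The members just inside the limit were *Jun* at 0.73 in WT FO and *Fos* at -0.78 in WT MZ. *Egr1* missed it by its WT FO value and *Egr3* likewise.

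In cKO FO the shift was 0.67 for *Nr4a1*, 0.63 for *Nr4a2* and 1.22 for *Nr4a3*, the direction seen in WT, but only 0.13 for *Fosb* and 0.14 for *Jun*. *Fos* was at -0.38. Of the cKO FO libraries, replicate 1 was the one with *Xist* at 14748, and the part of sex-linked RNA in these shifts was not tested. In cKO MZ all 10 members were lower in replicate 1, from -0.09 for *Fos* to -0.89 for *Nr4a1*. Of the 2 cKO MZ libraries, replicate 1 was the one with erythroid and granulocyte RNA, and the part of that RNA in the members' levels was not tested.

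**Figure D3:**
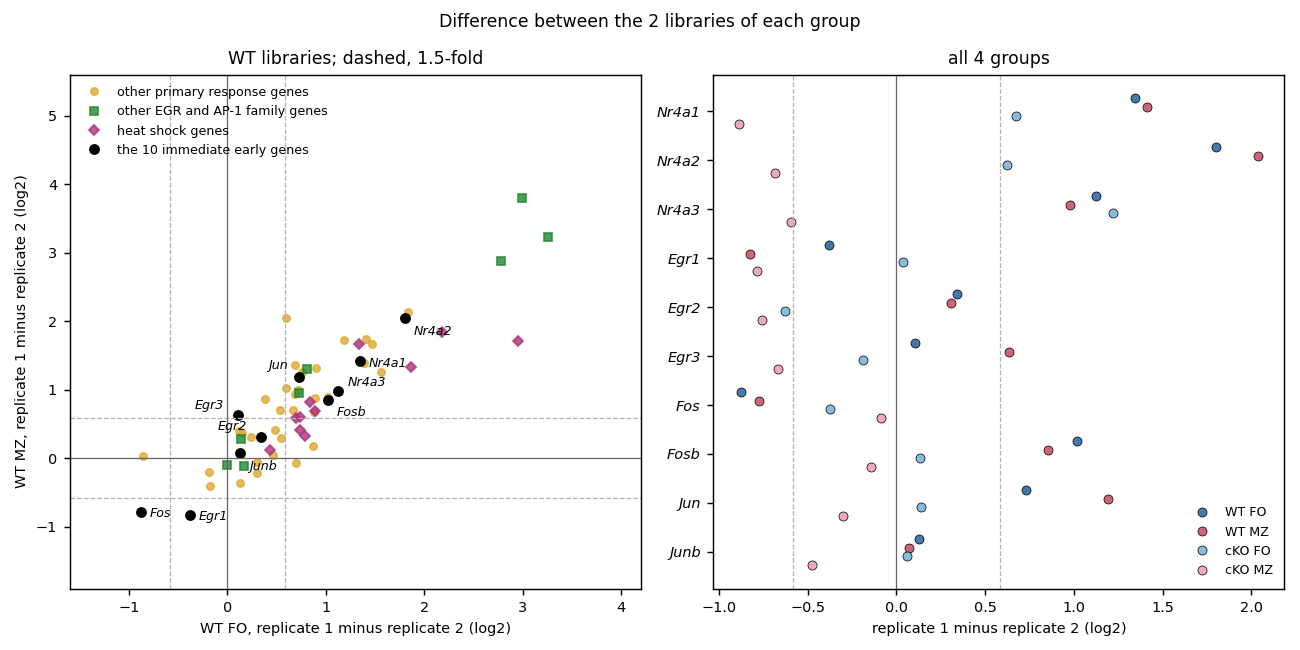
Left, replicate 1 minus replicate 2 in WT FO (x axis) and WT MZ (y axis), log2, for the 10 genes (black, named) and 3 lists of other genes, with dashed lines at 1.5-fold. Right, the same difference for the 10 genes in all 4 groups, where *Nr4a1* runs from 1.41 in WT MZ to -0.89 in cKO MZ.

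Because all genes of a library share its scaling, ratios of members within a library show the contrast directly. They were chosen after the values were seen. *Fosb* over *Fos*, per kilobase, was 0.883 and 0.237 in WT FO and 1.03 and 0.332 in WT MZ cells, a difference of 3.72-fold and 3.10-fold between the replicates. It was 0.690 and 0.484 in cKO FO cells, and 0.684 and 0.710 in cKO MZ cells. *Nr4a1* over *Fos* was 1.14 and 0.244 (WT FO), 1.10 and 0.531 (cKO FO), 1.38 and 0.302 (WT MZ) and 0.526 and 0.914 (cKO MZ). Over the 8 libraries *Nr4a2* over *Nr4a1* ran from 0.0272 to 0.0584 and *Nr4a3* over *Nr4a1* from 0.00390 to 0.00911, a span of 2.14-fold and 2.33-fold. The span was 4.34-fold for *Fosb* over *Fos*, 4.09-fold for *Jun* over *Junb*, 3.40-fold for *Egr3* over *Egr1* and 3.09-fold for *Egr2* over *Egr1*, and 5.66-fold for *Nr4a1* over *Fos*. The WT replicate 2 libraries therefore held more *Fos* than *Nr4a1* RNA per kilobase, and the WT replicate 1 libraries more *Nr4a1* than *Fos*.

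**Figure D4:**
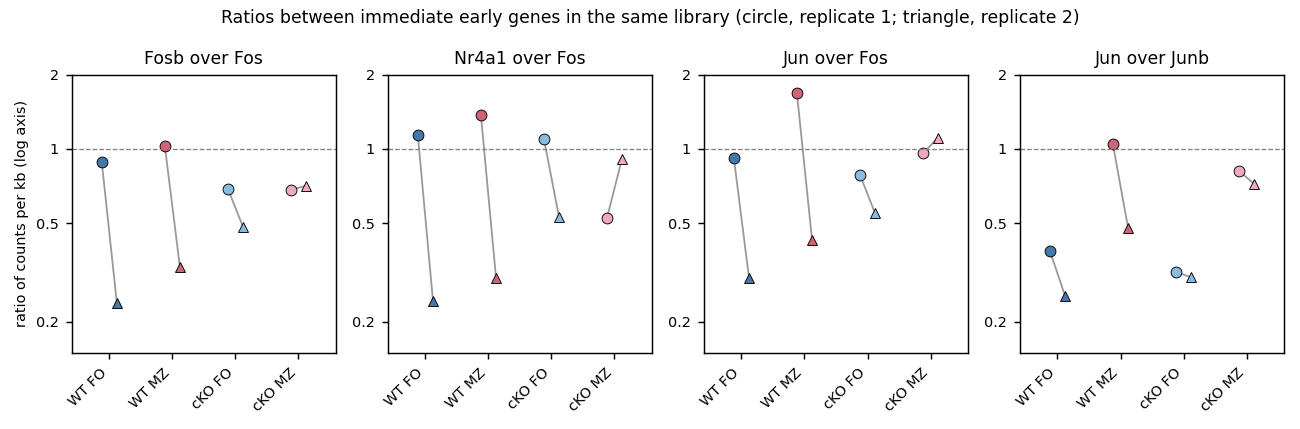
Ratio of normalized counts per kilobase of exon between pairs of the genes in the same library (log axis), with circles for replicate 1 and triangles for replicate 2, joined within a group. *Fosb* over *Fos* spans 0.237 to 1.03 in WT but 0.484 to 0.710 in cKO, and *Jun* over *Junb* is higher in every MZ library than in every FO library.

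Several other gene lists moved with the WT replicate number. Of the 8 further EGR and AP-1 genes tested, 5 were at least 1.5-fold higher in replicate 1 in both WT subsets and 0 lower. *Fosl2* went from 28.5 in WT FO replicate 2 to 234 in replicate 1 and from 61.6 to 870 in WT MZ (shifts of 2.99 and 3.80), wider than any member. *Jund* shifted by 0.73 and 0.95. Of the 33 other primary response genes tested, 17 were higher in replicate 1 and 0 lower, with median shifts of 0.66 in WT FO and 0.70 in WT MZ, against -0.02 and -0.01 over all genes. Of the 9 feedback genes 3 were higher and 0 lower, and of the 13 promoter-binding factors, the 12 kinases and the 2 NAB genes none passed in either direction. Heat shock genes, which encode chaperones, moved with the same libraries. Of the 11 tested 8 were higher and 0 lower, and their summed level was 120004 and 64065 (WT FO), 137777 and 58779 (cKO FO), 98100 and 67790 (WT MZ) and 64253 and 66885 (cKO MZ). Their part in the members' shift was not tested.

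Marker lists of other cell types also moved with the replicate number, at low levels. Pan-B, FO and MZ markers had 0 of 7, 0 of 2 and 0 of 5 genes past 1.5-fold in both WT subsets. Of 5 germinal center markers 0 were higher and 3 lower in replicate 1, of 7 macrophage markers tested 0 were higher and 4 lower, and of 6 erythroid markers 0 were higher and 5 lower. Of 7 granulocyte markers tested 5 were higher and 0 lower, of 6 dendritic cell markers 1 and 3, of 5 plasma cell markers 2 and 1, and of 2 T cell markers tested 0 and 0. In the 4 WT libraries the summed levels were small, from 22.8 to 81.9 for granulocyte, from 25.9 to 328 for erythroid, from 708 to 1809 for macrophage, from 211 to 452 for dendritic cell and from 909 to 1286 for T cell markers. Nearly all of the T cell sum was *Lck*, at 1030 and 1226 in WT FO and 864 and 1170 in WT MZ. The next highest T cell marker, *Trac*, reached at most 38.9 there. Plasma cell markers, of which B cells also express *Xbp1* and *Irf4*, summed to 32522 and 14865 in WT FO cells, and to 41216 and 20373 in WT MZ cells. Most of that sum was *Irf4*, at 28655 and 10907 (WT FO) and 37342 and 13512 (WT MZ). *Prdm1* was also higher in replicate 1, at 153 and 77.1 (WT FO) and 594 and 279 (WT MZ). *Jchain* was lower, at 619 and 968 (WT FO) and 305 and 3692 (WT MZ). *Sdc1* was lower too, at 331 and 392 (WT FO) and 27.0 and 101 (WT MZ). *Xbp1* was at 2764 and 2520 (WT FO) and 2947 and 2789 (WT MZ). The part of these cells in the shift was not tested.

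Genes were then ranked by how closely their levels followed each family over the 8 libraries, as the root mean square difference between a gene's centred log2 level and the family's mean centred profile. For the NR4A genes the closest were *Plaur*, the urokinase receptor (0.158), *Ildr1* (0.185), *Gla*, alpha-galactosidase (0.187), *Ccl4*, a chemokine (0.222), and *Ciart*, a clock repressor (0.225), where the median over genes tested was 0.689. *Nr4a1* itself lay at 0.183, and *Nr4a2* and *Nr4a3* at 0.361 and 0.372. *Plaur* was at 9882 and 3879 (WT FO), 7906 and 5178 (cKO FO), 18183 and 6509.7 (WT MZ) and 7201 and 12504 (cKO MZ), and so was high and low in the same libraries as *Nr4a1*. Each family profile includes the family's own genes. The AP-1 genes lay between 0.261 and 0.426 from their own mean profile, with a median over all genes of 0.347. The closest genes were *Tomm20* (0.0434), *C920009B18Rik* (0.0662), *Rnf145* (0.0755), *Zfp267* (0.0767) and *Rps13* (0.0774), which varied little. The EGR genes lay between 0.265 and 0.463 from theirs, with a median over all genes of 0.463, and the closest genes were *Gm1840* (0.106), *Slc25a33* (0.143), *Rps3a3* (0.149), *Gm2534* (0.171) and *Gm5297* (0.175). Several of these are predicted genes or ribosomal protein copies, for which counts between near-identical sequences are uncertain. *Tomm20* here is the row with identifier ENSMUSG00000093904.2.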

How the data were processed

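RNA was measured in 8 libraries (2 in each of WT FO, WT MZ, cKO FO and cKO MZ). Total RNA was depleted of ribosomal RNA and read as 50-base single ends. The submitters' processing notes name mm10, HISAT2, featureCounts, HTSeq and DESeq2 without versions, and the strand used in counting is not given in the sources used here. The authors deposited the signal as counts divided by DESeq2 size factors, in one table of 27928 genes. Whole reads were recovered for 100% of values (tolerance 0.001). The 8 ATAC-seq samples were not analysed here.

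Log2(normalized count + 1) of 14761 genes with a mean of at least 10 was fitted with limma 3.58.1 (R 4.3.3, eBayes with trend), with 1 fit of 4 groups, or subset plus genotype for comparisons over both. Calls needed an adjusted p (Benjamini-Hochberg, all genes) up to 0.05 and a change of 1.5-fold or more, as in the study. Since the values are normalized, count models (edgeR 4.0.16, DESeq2 1.42.0, on recovered reads) served as alternatives, beside a pseudocount of 0.5, no filter, quantile and TMM normalization, only the libraries compared, a replicate block, no fold limit and each library left out. With 2 libraries against 2, an exact permutation test cannot go below p = 0.333, so none was run.

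The members and lists were chosen with earlier results of these data known. The text names all 10 members, up to 4 called genes per list by smallest p, *Fosl2*, *Jund*, *Nab1*, *Nab2* and *Srf*, 5 genes closest to each family and *Gtf2i*. *Fcer2a*, *Cr2*, *Xist*, *Ddx3y*, *Lck*, *Trac* and the plasma cell markers were named after their values were seen. Gene positions and exon lengths were taken from GENCODE M21, in which 27347 identifiers matched exactly. Promoters are those of RefSeq for GRCm38.p6, the assembly of mm10.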

Additional observations from a re-analysis of the deposited data

How the results depend on the processing

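Among 420 log2 differences of members recomputed under alternatives other than leaving out a library, 410 kept their direction and their side of the call, 0 lost a call, 7 gained one and 3 changed sign. With each library left out in turn, 311 of 352 did so, 9 lost a call, 8 gained one and 24 changed sign. Both totals hold only *Egr1* and *Egr2* for cKO against WT within a subset, and no interaction. The 420 include the block with the cKO MZ numbers exchanged, chosen after seeing the data. In that block *Jun* gained a call in WT and in cKO, and *Nr4a2* over both genotypes. The genotype and interaction comparisons called 0 members under every alternative run. In cKO, FO against MZ, 3 members were called with only the libraries compared (*Egr2*, *Jun* and *Nr4a2*). With each library left out, 0 to 2 members were called in WT, 0 to 2 in cKO and 1 to 3 over both genotypes. At a 2-fold limit 2 members, *Nr4a1* and *Nr4a2*, shared the WT shift in place of 6. Of the sign changes, *Nr4a3* over both genotypes was at 0.11 under quantile normalization, and *Fos* in cKO against WT was at -0.0099 with edgeR and -0.0206 with DESeq2. The causes were not tested. Members had at least 81 reads in every library, and the parts of depth and of library number in these values were not compared.

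With a library left out, FO minus MZ in WT ran from -1.15 to 0.26 for *Nr4a1*, from -2.02 to 0.0217 for *Nr4a2*, from -0.86 to 0.26 for *Nr4a3*, from -0.10 to 0.54 for *Egr3*, from -0.59 to 0.29 for *Fos* and from -1.01 to 0.00598 for *Fosb*. In cKO it ran from -0.49 to 0.39 for *Nr4a1* and from -0.51 to 0.71 for *Nr4a3*. Over both genotypes it ran from -0.49 to 0.0745 for *Nr4a1*, from -0.38 to 0.17 for *Nr4a3* and from -0.35 to 0.00083 for *Fos*. The difference of cKO from WT ran from -0.0486 to 0.77 for *Nr4a2* and from -0.14 to 0.21 for *Fos*.

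Same-numbered libraries share only a number in the labels. With the number as a replicate block, members called stayed at 1 in WT, 1 in cKO and 2 over both genotypes. The differences between replicates correlated across genes at 0.591 between WT FO and WT MZ, but at -0.00151 between cKO FO and cKO MZ and at -0.296 between WT MZ and cKO MZ. A block with the cKO MZ numbers exchanged, chosen after seeing the data, called 2, 2 and 3 members, with 2262, 2585 and 3130 genes in all.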

Other observations

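The genes in this section were named after their values were seen, and the values are given with no explanation. The AP-1 family gene *Atf3* was at 1421 and 147 normalized counts (WT FO), 1306 and 574 (cKO FO), 6474 and 693 (WT MZ) and 2295 and 3947 (cKO MZ). *Maff*, a small MAF factor, was at 639 and 92.3 (WT FO), 719.95 and 373 (cKO FO), 721 and 96.9 (WT MZ) and 292 and 552 (cKO MZ). Both were thus high in the WT libraries numbered 1, as *Nr4a1* was, and the higher cKO MZ library was number 2 for all 3 genes. The clock gene *Per1* was at 15280.5 and 4284 (WT FO), 14212 and 10227 (cKO FO), 10536 and 2403 (WT MZ) and 5317 and 8139.9 (cKO MZ).

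The inducible chaperone gene *Hspa1a* was at 524 and 66.6 (WT FO), 1104 and 14.1 (cKO FO), 85.7 and 25.4 (WT MZ) and 3.99 and 12.4 (cKO MZ). Its widest gap thus lay between the cKO FO libraries. Between these libraries *Fosb* and *Jun* differed by 1.10-fold each. *Nr4a1*, *Nr4a2* and *Nr4a3* were each at least 1.5-fold higher in cKO FO replicate 1, as *Hspa1a* was, and *Egr2* was at least 1.5-fold lower there. A link between these differences and *Hspa1a* was not tested. Between the subsets over both genotypes, 3 of 11 heat shock genes tested were higher in FO (*Dnajb1*, *Dnaja1* and *Hspa1b*) and 1 in MZ cells (*Bag3*). *Hspa1a* and *Hspa1b* are near-identical copies, so that the values of each are uncertain.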
